A study of Sus scrofa with 6 samples.

Results

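PTGS2, which encodes the inducible prostaglandin synthase, and 5 cytokine genes, IL10, IL19, IL20, IL24 and IL18, were followed in whole pig embryos with and without a paternal genome. These 6 genes, out of 1780 in the count table, were found by matching the table's Ensembl pig identifiers to symbols. The members were selected on earlier fold changes and calls of the comparison of parthenotes with controls, in which IL19 had passed, together with the family and pathway of the genes. Their own differences in that comparison are therefore given as a description. Of the 6 members, 4 had at least 10 reads over all embryos. IL20 and IL24 had fewer and are treated as not measured.

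The embryos were of Landrace x Yorkshire x Duroc (LYD) stock, collected whole at embryonic day 21. Controls (n = 3) are labelled untreated. Parthenotes (n = 3) are labelled parthenogenesis and developed from unfertilised oocytes stimulated electrically and then placed in the oviducts of surrogate LYD gilts, so they had no paternal chromosomes. The labels do not spell out how the controls were conceived or whether embryos had a dam in common. The p-values therefore set a group difference only against the spread of these samples, which may be in part technical. Effects of dam, sex, handling or developmental progress cannot be told apart from the missing paternal genome where they follow the group.

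Only chromosome 9 was analysed here, with 1193714 to 1484193 counted reads per library. CPM, counts per 1000000 of those reads after TMM scaling, thus expresses each gene relative to chromosome 9 alone, and 3 reads, taken as the floor of detection, were worth 2.02 to 2.36 CPM. PEG10, a gene expressed from the paternal copy in mammals, had 25310 to 34080 CPM in controls and 10.1 to 27.5 CPM in parthenotes. No parthenote reached a level near that of a control for this gene. COL1A2 of connective tissue (40690 to 47880 CPM), MYOG of skeletal muscle (1069 to 1262 CPM) and PHOX2A of autonomic neurons (13.4 to 24.9 CPM) were present in all 6 embryos, which are labelled whole. Control 1 stood apart from the other controls, with a chi-square of 141 and 143 per degree of freedom against control 2 and 3, where control 2 and 3 differed by 6.98. The corresponding values were 61.0 and 52.8 for parthenote 1 against parthenote 2 and 3, and 21.1 between the last 2.

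Prostaglandins are lipid signals made from arachidonic acid, which phospholipase A2 enzymes such as PLA2G4A release from membranes and which the PTGS enzymes then oxidise. PTGS2 is the form that cells switch on in inflammation, growth and reproduction, and prostaglandins of the conceptus and the uterine lining are known for their part in early pig pregnancy. The interleukin-10 family signals through paired receptor chains and JAK and STAT proteins. IL10 restrains macrophages and other leukocytes, while IL19, IL20 and IL24 act mainly on epithelial cells and lie beside IL10 in mammalian genomes. IL18 belongs to another cytokine family, that of interleukin-1, and is made as a precursor that caspase-1 cleaves inside inflammasomes.

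In the pig genome (Sscrofa11.1, RefSeq) the cytokine cluster occupied 131681 bases of chromosome 9. IL10 lay at 67400727 to 67405941, IL19 at 67469519 to 67479597, IL20 at 67498788 to 67502110 and IL24 at 67525246 to 67532407. IL18 lay at 39839959 to 39861258 and PTGS2 at 127850164 to 127858866, both far from the cluster. The RefSeq span of PTGS2 shared 5286 bases, the larger part of its length, with that of its neighbour PLA2G4A. The span of IL24 shared 1464 bases with FCMR. The library kit did not mark strand, so reads in a shared stretch cannot be assigned to a gene by strand. How such reads were counted is not known, so the values of PTGS2 and PLA2G4A may not be separate. The spans of IL10, IL19, IL20 and IL18 overlapped no other RefSeq gene.

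PTGS2 was measured well above the floor in every embryo. Control 1, 2 and 3 had 108, 94.9 and 79.3 CPM (137, 121 and 105 reads). Parthenote 1, 2 and 3 had 122, 498 and 188 CPM (159, 702 and 280 reads). All 3 parthenotes lay above all 3 controls, parthenote 1 by little and parthenote 2 by far the most. The group means were 94.1 ± 14.4 CPM in controls and 269 ± 201 CPM in parthenotes (SD, n = 3 each), so the SD was 15.3% of the mean in controls and 74.5% in parthenotes.

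The log2 fold change of PTGS2 was 1.52 ± 0.50 (SE), or 2.87-fold, with a 95% interval of 0.34 to 2.69. With p-values adjusted by Benjamini-Hochberg over all 807 tested genes, it did not pass the quasi-likelihood test of edgeR (adjusted p = 0.144). The difference rested on parthenote 2: without it the log2 fold change was 0.73 (adjusted p = 0.170), and without parthenote 1 it was 1.87 and passed (adjusted p = 0.0292, with 0.0292 to 0.399 over the 16 alternative settings). Between embryos of the same number the log2 difference was 0.17, 2.39 and 1.25 for numbers 1, 2 and 3.

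The spread of PTGS2 among parthenotes was unlike that of most genes. Its highest parthenote was 4.09 times its lowest, where the median over 607 tested genes with a mean of at least 100 reads was 1.18. Only 6 of the 607 had a ratio at least as large, PTGS2 included. This look at the spread was chosen after the values were seen. Nothing in the labels distinguishes parthenote 2 from the other parthenotes.

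**Figure D1:**
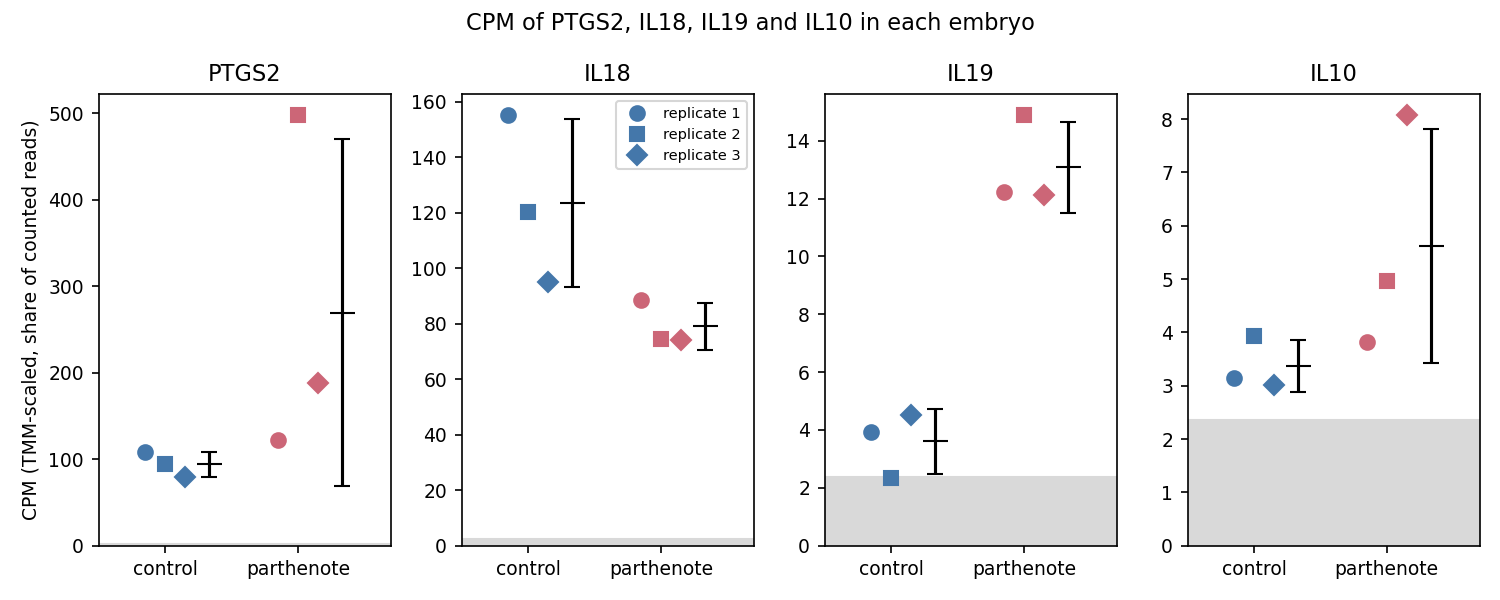
CPM (vertical axis, from 0, with its own scale in each panel) of PTGS2, IL18, IL19 and IL10 in each of the 6 embryos, with a symbol per replicate number. Black bars are the mean and SD of 3 embryos, and the grey band reaches the highest floor of 3 reads, 2.36 CPM; PTGS2 reaches 498 CPM in parthenote 2, IL19 separates the groups near the floor, and IL18 is lower in all parthenotes.

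PLA2G4A, which supplies arachidonic acid, was the only gene of the prostaglandin list (1 of 38) in the chromosome 9 table. It had 563, 482 and 423 CPM in control 1, 2 and 3 and 365, 411 and 441 CPM in parthenote 1, 2 and 3. The groups overlapped, and parthenote 2, the highest for PTGS2, was the middle parthenote for PLA2G4A. The counting of reads from the stretch that these genes share is not known. Its log2 fold change was -0.27 ± 0.14, with a 95% interval of -0.58 to 0.04 (adjusted p = 0.307 in edgeR's test). The count of called genes in this list was thus 0, with 0 at an unadjusted p under 0.05, and DESeq2 and limma-voom also called 0. The other enzymes and the receptors of prostaglandins were not analysed here.

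Within the cytokine cluster, IL19 was the member with a difference past the threshold, at very low levels. Control 1, 2 and 3 had 5, 3 and 6 reads (3.94, 2.35 and 4.53 CPM). Parthenote 1, 2 and 3 had 16, 21 and 18 reads (12.2, 14.9 and 12.1 CPM). The groups did not overlap, the controls lay at or little above the floor, and the parthenotes had similar counts. Pooled over the group, 14 control reads gave 3.63 CPM with an exact 95% Poisson interval of 1.98 to 6.08, and 55 parthenote reads gave 13.0 CPM with 9.83 to 17.0. These intervals cover counting error only.

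IL19 had a log2 fold change of 1.83 ± 0.42, or 3.55-fold, and its 95% interval ran from 0.88 to 2.78 (adjusted p = 0.0393 in edgeR's test). Among all 807 tested genes it ranked 2 by upward log2 fold change, and PTGS2 ranked 4. IL19 entered the test only through the parthenotes, since no control had 10 reads, so a difference was built into its entry. Its call was lost with the replicate number as a block (adjusted p = 0.0684) and without any of the 6 embryos in turn (0.0579 to 0.169), while its log2 fold change stayed between 1.60 and 2.02. Over all alternatives that gave an adjusted p it ran from 0.0324 to 0.169. Between embryos of the same number the log2 difference was 1.63, 2.66 and 1.42.

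IL10 had 4, 5 and 4 reads in control 1, 2 and 3 (3.15, 3.92 and 3.02 CPM). It had 5, 7 and 12 reads in parthenote 1, 2 and 3 (3.82, 4.96 and 8.08 CPM). The groups overlapped, since control 2 was above parthenote 1, and parthenote 3 was the highest embryo. The pooled levels were 3.37 CPM in controls (exact Poisson 95% interval 1.79 to 5.76) and 5.69 CPM in parthenotes (3.65 to 8.47), and these intervals overlap. IL10 had too few reads for the main filter. With a filter of 10 reads in total edgeR estimated a log2 fold change of 0.73 ± 0.51 for it (adjusted p = 0.470, and 0.642 without a filter), so no difference was detectable at this depth.

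IL20 had 0 reads in all 6 embryos, which allows up to 0.777 CPM in the pooled controls and 0.711 CPM in the pooled parthenotes at 3 reads per group. IL24, which shares receptors with IL20, had 1 read, in parthenote 1. The 4 genes of the cluster thus ran from IL19 and IL10, with at least 3 reads in every embryo, to IL20, with none in any. With so few reads IL24 cannot be compared between the groups.

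IL18 was lower in the parthenotes. Control 1, 2 and 3 had 155, 120 and 95.1 CPM (197, 153 and 126 reads). Parthenote 1, 2 and 3 had 88.7, 74.4 and 74.0 CPM (116, 105 and 110 reads). The groups did not overlap, but control 3 lay nearer to parthenote 1 than to control 1. The means were 124 ± 30.2 CPM in controls and 79.1 ± 8.36 CPM in parthenotes (SD, n = 3 each).

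The log2 fold change of IL18 was -0.64 ± 0.20, with a 95% interval of -1.10 to -0.18, so that controls were 1.56-fold higher. It did not pass edgeR's test (adjusted p = 0.120), nor under any of the 16 alternative settings (0.0625 to 0.269), in all of which it stayed below 0. Without control 1, the library that stood apart, it was -0.44 (adjusted p = 0.209). In a whole embryo, fewer cells that make a transcript and less of it per cell cannot be told apart, for IL18 as for the other members.

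Of the 3 tested members, 1 was called, IL19, beside 5.20% of the 807 tested genes called in either direction, 1.61% called higher and 3.59% called lower. All 3 had an unadjusted p under 0.05, beside 175 of the 807 genes. All 3 also had groups that did not overlap, 2 with the parthenotes higher and 1 with the parthenotes lower, beside 28.0% of tested genes. Nothing is read from these counts, since the members were chosen with this contrast in view.

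The receptor and signalling genes were looked at beside the chosen members. Too few of them were in the table to show whether a pathway moved. IL10RA, the ligand-binding chain of the IL10 receptor, was the only gene of the interleukin-10 family list (1 of 19) in the table. It had 109, 125 and 150.3 CPM in control 1, 2 and 3 and 164, 163 and 152 CPM in parthenote 1, 2 and 3. The parthenotes were all above the controls, parthenote 3 barely so. Its log2 fold change was 0.32 ± 0.15, with a 95% interval of -0.03 to 0.67, and it did not pass (adjusted p = 0.278 in edgeR's test).

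Of the interleukin-18 and inflammasome list, 3 of 36 genes were in the table and all 3 were tested. In edgeR's test 0 passed, with 0 at an unadjusted p under 0.05, and DESeq2 and limma-voom called 0. CASP1, the protease that matures IL18, had 7.88, 8.63 and 11.3 CPM in control 1, 2 and 3 and 26.8, 7.09 and 8.08 CPM in parthenote 1, 2 and 3. Parthenote 1 alone was high, and the log2 fold change of 0.57 ± 0.55 became -0.29 without it. PANX1, a membrane channel, had a log2 fold change of 0.13 ± 0.10, and NLRX1, a mitochondrial NLR protein, one of -0.22 ± 0.18. The median of the 3 was 0.13, beside 0.02 over all tested genes.

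The NF-kB and inflammatory list had 5 of 33 genes in the table, 4 of them tested. In edgeR's test 0 passed, with 0 at an unadjusted p under 0.05, and DESeq2 and limma-voom called 0. MAPKAPK2, a stress kinase that stabilises cytokine transcripts and lies beside IL10, had a log2 fold change of -0.13 ± 0.11. BIRC3, an NF-kB target and ubiquitin ligase, had one of 0.09 ± 0.08. The median of the list was -0.04.

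IL6, the untested gene of that list and chosen after its values were seen, encodes an inflammatory cytokine. It had 18, 6 and 7 reads in control 1, 2 and 3 (14.2, 4.71 and 5.29 CPM) and 2, 2 and 3 reads in parthenote 1, 2 and 3 (1.53, 1.42 and 2.02 CPM). All parthenotes were at or under the floor of 3 reads and below all controls, which is the opposite side from PTGS2 and IL19.

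**Figure D2:**
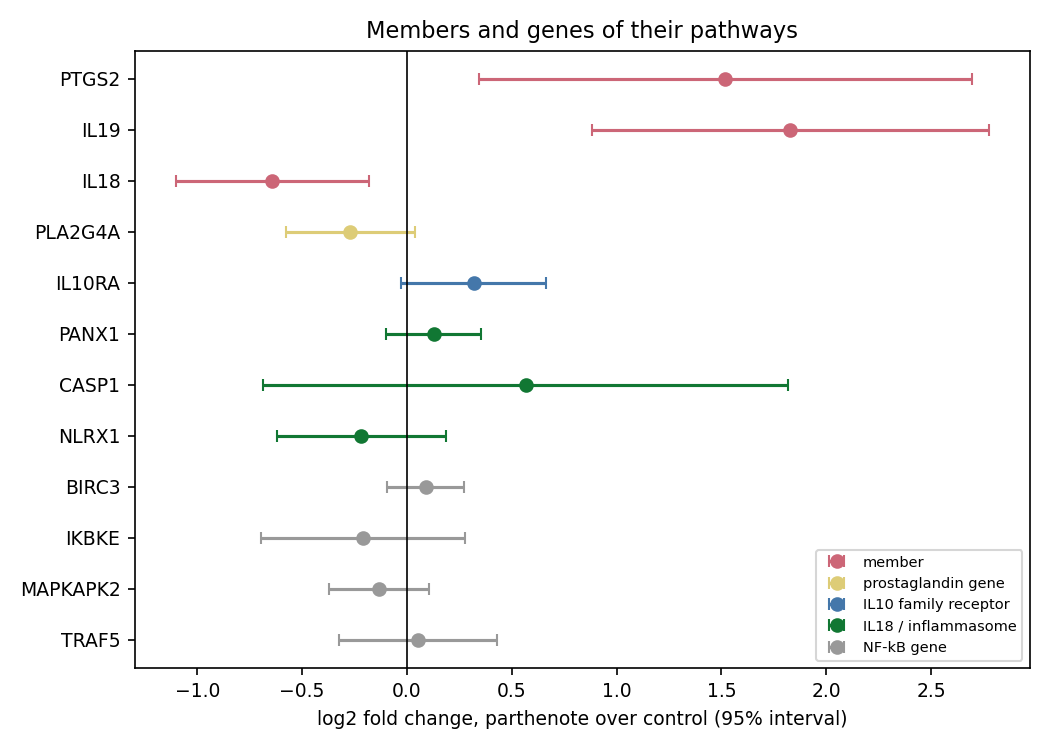
Log2 fold change of parthenotes over controls (horizontal axis) with its 95% interval for the 3 tested members and the 9 tested genes of the prostaglandin, interleukin-10, interleukin-18 and NF-kB lists. The intervals of PTGS2, IL19 and IL18 leave out 0 before adjustment for the number of genes, and those of the 9 other genes include it.

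Cells that make or answer these cytokines were looked at through marker lists. Of 45 leukocyte markers 9 were in the table. CD3D, a T cell receptor chain, had 0 reads in all embryos, and CD3E, MMP12, CXCR5 and FCMR had under 10 each. The summed level of the list was 732 to 965 CPM in controls and 640 to 676 CPM in parthenotes, carried by UBASH3B, a phosphatase that is not limited to leukocytes. UBASH3B lay at -0.42 ± 0.13 in log2 fold change (adjusted p = 0.106, edgeR) and JAML, an adhesion molecule of leukocytes, one of 0.20 ± 0.25. In edgeR's test 0 of 3 tested markers passed and 1 had an unadjusted p under 0.05. UBASH3B passed in DESeq2 (adjusted p = 0.0458), without a filter on low counts (0.0383) and without control 1 (0.0179), so the count there was 1; its adjusted p ran to 0.285 over the other settings.

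Of 29 markers of surface epithelium, the main target tissue of IL19, 6 were in the table and 5 were tested. POU2F3, a POU-domain regulator of keratinocytes and tuft cells, fell by 3.80 ± 0.31 in log2 units and ST14, the membrane protease matriptase, by 1.40 ± 0.13 (adjusted p = 5.89e-05 and 1.36e-04 in edgeR's test). POU2F3 had 108, 134 and 133 reads in the controls against 6, 7 and 16 in the parthenotes. Only the controls carried POU2F3 through the count filter, so a difference was built into its entry. LAMB3 (0.24 ± 0.16) and TRIM29 (0.16 ± 0.15) did not pass, no marker of the list rose, and the median of the 5 was 0.16. The summed level was 1050 to 1250 CPM in controls and 915 to 975 CPM in parthenotes, and PIGR had under 10 reads. Of 26 placental and uterine markers 2 were in the table. PLET1, a placenta-expressed gene, fell by 2.70 ± 0.56 (adjusted p = 0.0264), with 12, 20 and 18 reads in the controls against 2, 5 and 1 in the parthenotes. PLET1 entered the test only through the controls, so a difference was built into its entry, as for IL19. PGR, the progesterone receptor, had 6 reads, all in controls. The summed level of these 2 was 11.8 to 17.3 CPM in controls and 0.673 to 3.54 CPM in parthenotes. The part of these markers in the values of IL19, IL18 and PTGS2 was not tested.

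The genes within 500 kb of a member were taken as their surroundings. Only genes that could be placed by symbol entered, so rows of the table without a position may also lie there. Around the cytokine cluster 11 genes were placed and 9 were tested. In edgeR's test 0 of the 9 passed and 1 had an unadjusted p under 0.05, while DESeq2 called 1 neighbour more over the 3 regions than edgeR. The log2 fold changes of the 9 ran from -0.40 to 0.03, with a median of -0.15, and 8 of them lay below 0. Each thus lay well below the 1.83 of IL19. Around PTGS2, 3 genes were placed and 2 were tested, PLA2G4A and TPR, a nuclear pore gene with a log2 fold change of 0.03 ± 0.10, and 0 passed.

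The placed neighbours of IL18 lay mostly on the same side as IL18 itself. There 12 genes had a known position, and 11 were tested, of which 8 lay below 0 and 3 above, with a median of -0.38 beside 0.02 for all tested genes. In edgeR's test 2 fell, 0 rose and 5 had an unadjusted p under 0.05. Below 0 lay also 8 of the 9 tested neighbours of the cytokine cluster, and 384 of all 807 tested genes. DLAT, a subunit of the pyruvate dehydrogenase complex, lay 76145 bases before IL18 and had 2080, 1984 and 1925 CPM in control 1, 2 and 3 and 1454, 1276 and 1441 CPM in parthenote 1, 2 and 3. DLAT fell by 0.52 ± 0.09 in log2 units (adjusted p = 0.00900 in edgeR). PLET1 lay 75096 bases after IL18, with 9.46, 15.7 and 13.6 CPM in control 1, 2 and 3 and 1.53, 3.55 and 0.673 CPM in parthenote 1, 2 and 3.

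Parthenotes were below all controls for 5 of these 11 genes, beside 14.3% of all tested genes. Besides DLAT and PLET1 these were SDHD, CRYAB and PTS, named after their values were seen. SDHD, a subunit of mitochondrial succinate dehydrogenase, lay at -0.54 ± 0.14 in log2 fold change (adjusted p = 0.0600), CRYAB, a small heat shock protein, -0.38 ± 0.16, and PTS, an enzyme of tetrahydrobiopterin synthesis, -0.67 ± 0.25. The call of DLAT was lost without control 2 (adjusted p = 0.0521, with 5.68e-05 to 0.0521 over the alternatives). PLET1 no longer passed when control 2 or 3, or parthenote 1 or 3, was left out (0.0588 to 0.118, with 0.00587 to 0.118 over the alternatives). Genes measured in the same libraries are not independent of each other.

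**Figure D3:**
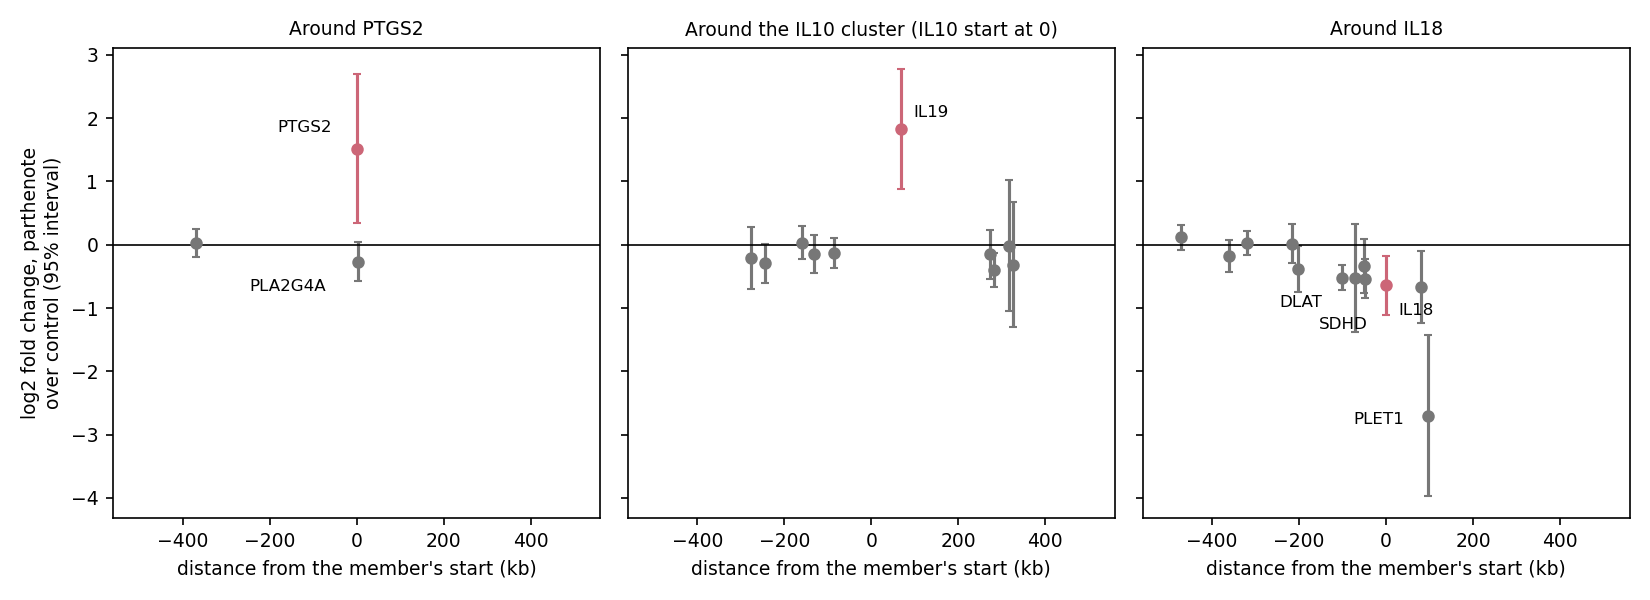
Log2 fold change of parthenotes over controls with its 95% interval (vertical axis) against the distance of each tested gene's lower coordinate from that of PTGS2, IL10 or IL18 (horizontal axis, kb). Members are red and neighbours grey. IL19 and PTGS2 stand above their neighbours, and IL18 lies among its own. Of the tested neighbours, 8 of 9 lie below 0 around the cytokine cluster and 8 of 11 around IL18.

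The genes whose pattern over the 6 embryos was most like that of each tested member were looked up by Pearson correlation of log2 CPM. These correlations describe 6 libraries that share their depth and group differences. For PTGS2 they were P4HA3 (r = 0.986), a collagen prolyl hydroxylase subunit, NMNAT2 (0.983), an enzyme of NAD synthesis in axons, and CAMK1G (0.971), a calcium-dependent kinase. P4HA3 had 216, 208 and 190.3 CPM in control 1, 2 and 3 and 212, 233 and 323 CPM in parthenote 1, 3 and 2. Like PTGS2 these 3 genes were highest in parthenote 2 and next in parthenote 3, but over a much smaller range, with log2 fold changes of 0.32, 0.23 and 0.22 that did not pass. With group means removed, these genes, picked for their likeness in the same libraries, correlated with PTGS2 at 0.993, 0.977 and 0.989, values that rest mainly on parthenote 2.

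For IL19 the most similar genes were ASNS (r = 0.981), which encodes asparagine synthetase, PLEKHB1 (0.980), a pleckstrin homology protein, and RPS6KC1 (0.979), a kinase-like protein. All 3 had every parthenote above every control, with log2 fold changes of 1.23 ± 0.10, 0.54 ± 0.08 and 0.20 ± 0.07. ASNS and PLEKHB1 passed edgeR's test (adjusted p = 4.90e-05 and 0.00639) and RPS6KC1 did not (0.162). With group means removed the correlations were 0.724, 0.671 and 0.809, on 3 to 21 reads of IL19 per embryo.

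For IL18 they were SDHD (r = 0.985), its neighbour 36356 bases away, STEAP1 (0.982), a metalloreductase, and MACC1 (0.972), a regulator of the MET receptor gene. SDHD had 1851, 1508 and 1348 CPM in control 1, 2 and 3 and 1245, 990.3 and 1012 CPM in parthenote 1, 2 and 3. As for IL18, control 1 was the highest and every parthenote lay below every control. With group means removed the correlations were 0.956, 0.947 and 0.915. STEAP1 and MACC1 had log2 fold changes of -0.48 ± 0.16 and -0.62 ± 0.22 and did not pass.

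**Figure D4:**
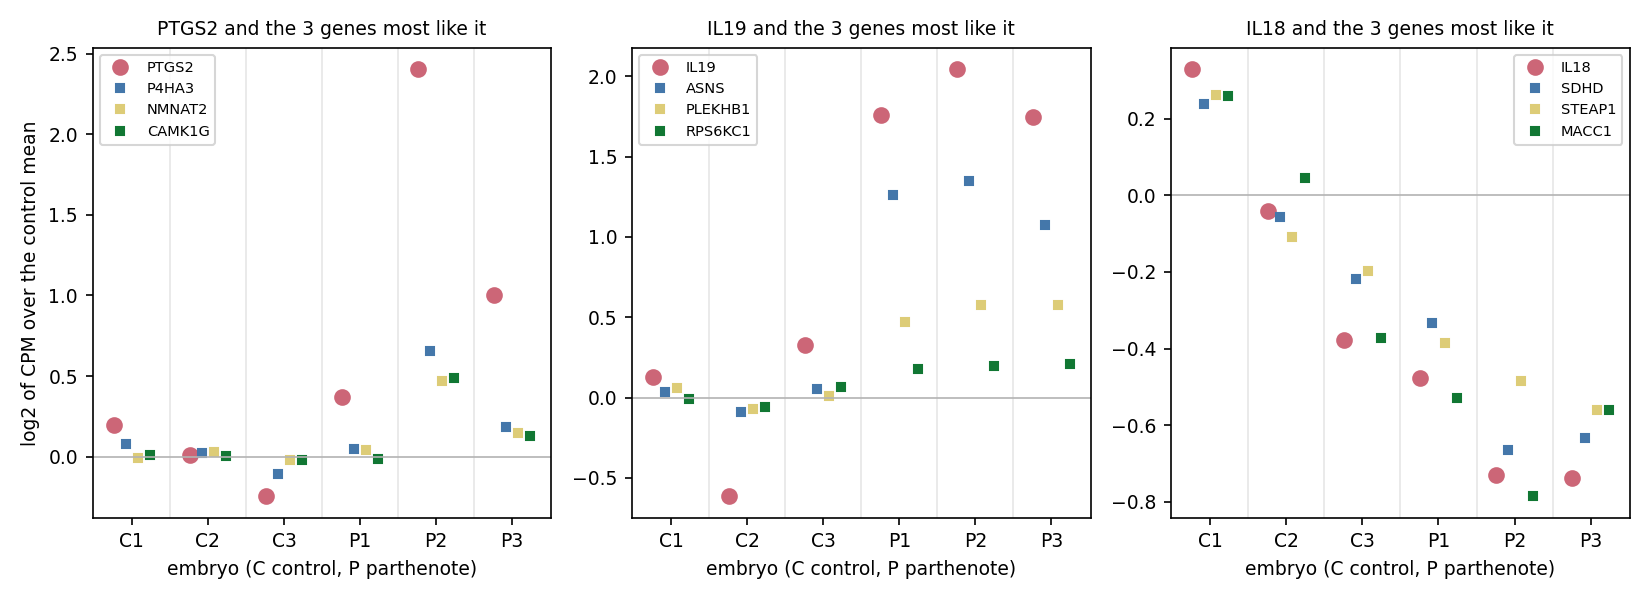
Log2 of CPM over the control mean (vertical axis) in each embryo (C1 to C3 controls, P1 to P3 parthenotes) for PTGS2, IL19 and IL18 (circles) and the 3 genes most like each (squares). PTGS2 and its 3 genes are highest in P2, the genes with IL19 are above every control in all 3 parthenotes, and those with IL18 are highest in C1.

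The tested members differed in pattern among themselves. Over the 6 embryos the log2 CPM of PTGS2 correlated with that of IL19 at r = 0.750 and with that of IL18 at -0.616, and IL19 with IL18 at -0.819. These values include the group differences that led to the choice of the genes. PTGS2 spread more among parthenotes than among controls. For IL18 the SD was 24.5% of the mean in controls and 10.6% in parthenotes. The reads of IL19 were too few to compare its spread between the groups.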

How the data were processed

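RNA of 6 whole embryos was made into libraries with the TruSeq RNA kit v.2, per the labels' protocols. Per the submitters' processing notes, HISAT2 2.1.0 and SAMtools 1.9 were used with the build Sscrofa11.1. The sources used here do not name the counting tool or the annotation. One table deposited by the authors gives raw counts per gene. Another file for each sample, also deposited by the authors, gives a normalized signal, equal to whole reads times a factor of that sample: divided by that factor, 100% of the values were whole to within 0.01. The reads recovered from them gave 42 called genes.

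The table has 1780 genes, 779 with a symbol. Positions come from RefSeq's Sscrofa11.1 table, matched by symbol (688 placed, 686 of them on chromosome 9). filterByExpr (minimum count 10, minimum total 15) left 807 genes. The test of the counts used edgeR 4.0.16 under R 4.3.3 (TMM, robust quasi-likelihood fit, Benjamini-Hochberg over 807 genes, threshold 0.05), after a check on simulated data. Log2 CPM for correlations used a prior count of 2.

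The members and gene lists were chosen with earlier results of these data known. Named genes were the members, every tested gene of the prostaglandin, interleukin-10 and interleukin-18 lists, up to 4 called genes (or the 2 most abundant) of the other lists and of the neighbours within 500 kb, and the 3 genes most like each tested member; other genes, named to account for a list, a region or a library check, were chosen after their values were seen. Alternatives were DESeq2's size factors, library totals or the authors' factors as scaling, other count filters, DESeq2 1.42.0, limma-voom (limma 3.58.1), the replicate number as a block, the fit without the most abundant gene and each embryo left out. The recovered reads were added after seeing the data. The titles number the embryos 1 to 3 in both groups without saying what a number marks. With group means removed, embryos of the same number correlated at 0.365, 0.272 and 0.147. The main test did not pair the embryos. Pairing by number entered only as the block among the alternatives and in the log2 differences between embryos of the same number. The titles do not give such a pairing, so it rests on the data. Values of 1 gene that the lists hold are not reported here.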

Additional observations from a re-analysis of the deposited data

How the results depend on the processing

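Of 253 values of named genes under an alternative setting, 236 kept their direction and their side of the threshold, 12 lost a call, 4 gained one and 1 changed sign. The change of sign was that of CASP1, to -0.29 without parthenote 1, where leaving out 1 embryo gave -0.29 to 0.88. The count of members called was 1 and became 0 with the replicate block (IL19, adjusted p = 0.0684) and 0 in DESeq2, which gave IL19 no adjusted p; without 1 embryo it was 0 to 1, the 1 being PTGS2 without parthenote 1. The count of neighbouring genes called was 2, and 3 in DESeq2, with library totals only, without a filter and with the replicate block, and 0 to 2 without 1 embryo (0 without control 2, 1 without control 3 or parthenote 3). The count of all called genes was 42, and 67 in DESeq2, and 17 to 55 without 1 embryo. It was 17, 18, 26 and 22 without control 2, control 3, parthenote 2 and parthenote 3, and the cause was not tested. With library totals only, 5 genes were higher and 27 lower, against 13 and 29. The block changed no other call of a member or pathway gene. The median log2 fold change of all genes moved to between -0.02 and 0.04 over the settings. The prostaglandin, interleukin-10, interleukin-18 and NF-kB lists had 0 called genes under every setting run. Depth limits IL10, IL19, IL20, IL24, IL6 and PLET1, each with at most 21 reads per embryo.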
